A study of Mus musculus with 7 samples.

Results

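Complexes II to V of the mitochondrial respiratory chain are represented here by 44 nuclear genes, chosen by symbol from the 21878 rows of a gene count table of mouse abdominal aorta. The symbols were Sdha to Sdhd for complex II, Cyc1 and the Uqcr genes for complex III, the Cox4 to Cox8 genes for complex IV and the Atp5 genes for complex V, with a total of at least 10 counts over the 7 libraries. Of 48 rows that matched, Cox7a1 and Cox8b were left out by name, and Cox7b2 and Cox8c were listed with 0 counts. Complex II had 4 members, complex III 9, complex IV 14 and complex V 17. The tissue was abdominal aorta, taken from male mice (strain C57BL/6, age 8 weeks) given angiotensin II (Ang II), a pressor peptide used to induce aortic aneurysm in hyperlipidaemic mice, over a period of up to 28 days. The 4 libraries labelled ApoE-/-Nur77-/- (double knockout, DKO 1 to DKO 4) carried the label of both deletions. The 3 libraries labelled ApoE-/- (ApoE 1 to ApoE 3) carried that of the ApoE deletion alone. By label, both groups thus shared the ApoE-/- background and the Ang II exposure. The comparison asks what loss of the nuclear receptor Nur77, encoded by Nr4a1, changes in that setting. Nothing in the labels ties each library to a mouse of its own, and p-values therefore describe variation among these libraries only.

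Complex II (succinate dehydrogenase) passes electrons from succinate to ubiquinone and is also an enzyme of the tricarboxylic acid cycle. Complex III moves electrons on to cytochrome c, complex IV (cytochrome c oxidase) reduces oxygen with them, and complex V (ATP synthase) makes ATP from the proton gradient that complexes III and IV, with complex I, build up. Expression of these nuclear genes is known to be high in heart, skeletal muscle and brown fat, and transcription factors such as NRF1, GABPA, ERR and YY1, with the coactivator PGC-1α, are textbook regulators of them. The mitochondria-encoded subunits (6 listed) had 0 rows in the count table under the symbols searched, and so were not analysed here.

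RefSeq promoters (GRCm38.p6, 250 bases before to 50 after the annotated start) were at hand for 34 of the 44 members. Exact letters were searched on both strands of these and of the promoters of 27025 genes. The NRF1 letters GCGCATGC stood in the promoters of 7 members, which is 20.6% of those searched, against 3.05% of all genes. For GABPA (CCGGAAGT) the shares were 11.8% (4 members) against 4.31%, for ERR (TCAAGGTCA) 5.88% (2 members) against 0.466%, and for YY1 (AAGATGGCG) 8.82% (3 members) against 1.64%. SP1 letters (GGGCGGGG) stood in 20.6% of members against 19.6% of all genes. The promoters of the genes for subunit c of ATP synthase, Atp5g1, Atp5g2 and Atp5g3, are shown because these 3 genes encode the same mature protein and differed in their values, and one further promoter of each complex with a match is shown for comparison. Each is written 5′ to 3′ on the strand of the gene, with the letters of matches that lie wholly inside it in capitals. The 80 bases end at the base before the start, except for Cox6a1, where they begin at base -190. An NRF1 match of Uqcr11 (bases -4 to 4) and an SP1 match of Atp5g2 (bases -6 to 2) run past the end and stay in lower case. The Atp5g1 stretch lies at chr11:96075632-96075711 (minus strand) and held none of the letters searched. The Atp5g2 stretch lies at chr15:102671048-102671127 (minus), with the NRF1 letters on both strands, overlapping. The Atp5g3 stretch lies at chr2:73911327-73911406 (minus), with the ERR letters on the opposite strand. For Atp5g1 and Atp5g3 the start used by the promoter table lies 63 and 1138 bases inside the span of the gene given below. The Sdhb stretch lies at chr4:140961191-140961270 (plus, NRF1), that of Uqcr11 at chr10:80406822-80406901 (minus, GABPA), that of Cox6a1 at chr5:115349069-115349148 (minus, NRF1 on both strands) and that of Atp5k at chr5:108434400-108434479 (minus, NRF1 on both strands). A match describes letters only and shows no binding.
Atp5g1: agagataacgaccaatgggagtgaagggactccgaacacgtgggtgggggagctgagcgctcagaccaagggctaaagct
Atp5g2: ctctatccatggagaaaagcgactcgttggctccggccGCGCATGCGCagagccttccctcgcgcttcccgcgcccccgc
Atp5g3: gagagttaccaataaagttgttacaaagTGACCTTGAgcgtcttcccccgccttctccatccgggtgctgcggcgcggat
Sdhb: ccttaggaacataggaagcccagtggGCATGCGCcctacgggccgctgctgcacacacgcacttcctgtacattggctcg
Uqcr11: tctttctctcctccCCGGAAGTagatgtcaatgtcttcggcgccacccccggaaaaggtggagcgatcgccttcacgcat
Cox6a1: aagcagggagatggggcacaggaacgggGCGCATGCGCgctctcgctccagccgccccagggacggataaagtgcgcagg
Atp5k: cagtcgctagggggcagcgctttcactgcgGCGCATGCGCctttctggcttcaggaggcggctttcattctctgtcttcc

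Library totals lay between 19949042 and 21727192 counts in the DKO group and between 19295287 and 21205934 counts in the ApoE group. Levels are given in CPM, which are counts scaled to a common library size, and a gene without counts could have a level of up to 0.138 to 0.155 CPM from counting error alone. Both targeted genes had counts in libraries labelled as lacking them, and gene counts do not tell intact from altered transcripts. Nr4a1 was read at 46.2, 56.9, 90.1 and 92.7 CPM in the libraries labelled double knockout, against 192, 56.4 and 111 CPM in those labelled ApoE-/- (log2 fold change -0.75, SE 0.42, edgeR adjusted p = 0.36). Apoe, labelled as deleted in both groups, averaged 28.7 ± 7.52 CPM (SD, n = 4) in the DKO libraries and 222 ± 34.4 CPM (SD, n = 3) in the ApoE libraries. It was among the 4 genes of the whole fit called lower in DKO (log2 fold change -2.95, SE 0.23, edgeR adjusted p = 0.0227). Directions below are for that reason those of the labels (DKO over ApoE), not of a checked genotype.

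Subunit genes of all 4 complexes were at lower levels in the DKO libraries, but no member passed the test adjusted over all 14609 genes tested. All 44 members passed the low-count filter, and 43 of them had a negative log2 fold change, as had 52.6% of all genes. Their median log2 fold change was -0.78, against -0.02 for all genes. With edgeR's quasi-likelihood test and an adjusted p under 0.05, 0 members were called lower or higher, where the share of all genes called lower was 0.0274%. The members' adjusted p-values ran between 0.125 and 0.83. At an unadjusted p under 0.05, 40 members were lower, against 11.8% of all genes, and 0 were higher, against 8.00% of all genes. DESeq2, run as an alternative, called 31 members lower and 0 higher at adjusted p under 0.05, where it called 4.80% of all genes lower. The groups did not overlap in CPM for 21 members, all lower in DKO, against 9.24% of all genes. In bulk tissue, fewer cells of a type and less RNA per cell cannot be told apart.

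**Figure D1:**
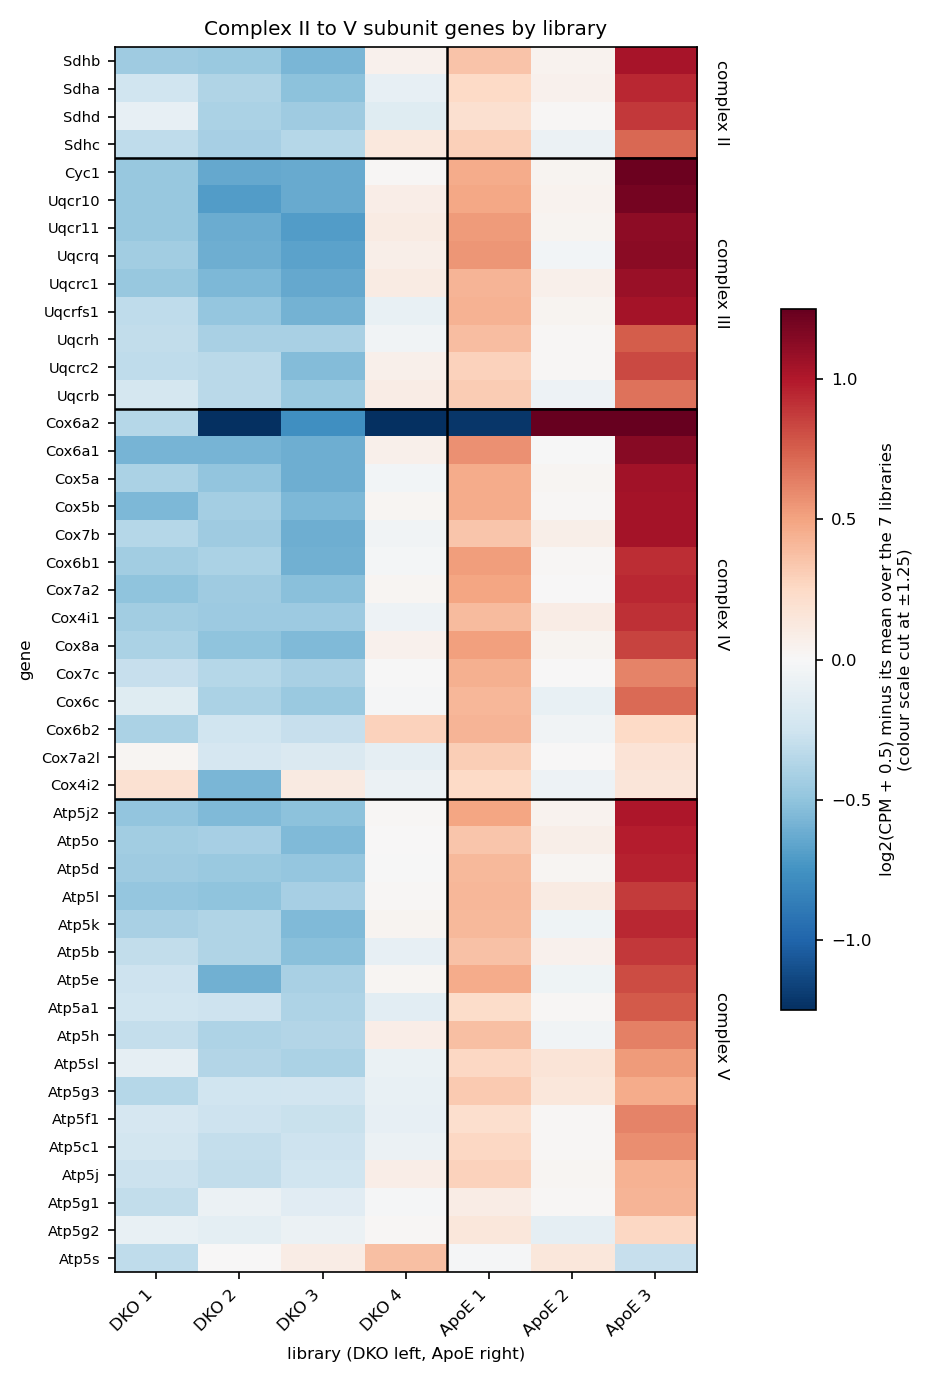
Level of each of the 44 subunit genes (rows, by complex) in each library (columns, DKO left of the line, ApoE right), as log2(CPM + 0.5) minus the gene's mean over the 7 libraries. ApoE 3 was the highest library for 40 of the genes and a DKO library the lowest for 44, while Cox6a2, Cox4i2 and Atp5s do not follow the other rows.

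Together the members took 0.616, 0.571, 0.556 and 0.714% of all counts in the DKO libraries, against 0.923, 0.783 and 1.31% in the ApoE libraries (0.614 ± 0.0713%, SD, n = 4, against 1.00 ± 0.270%, SD, n = 3). The groups did not overlap in this share, and the highest DKO library, DKO 4, lay close under the lowest ApoE library, ApoE 2. The order of the libraries recurred from gene to gene. DKO 4 was the highest of the DKO libraries for 40 members, ApoE 2 was the lowest of the ApoE libraries for 42, and ApoE 3 was the highest of all for 40. For 20 members DKO 4 was at or above ApoE 2. The spread within groups was larger than that of the average gene in the ApoE group, with a median coefficient of variation of 17.8% over the members in DKO (all genes 15.2%) and 29.4% in ApoE (all genes 13.3%).

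**Figure D2:**
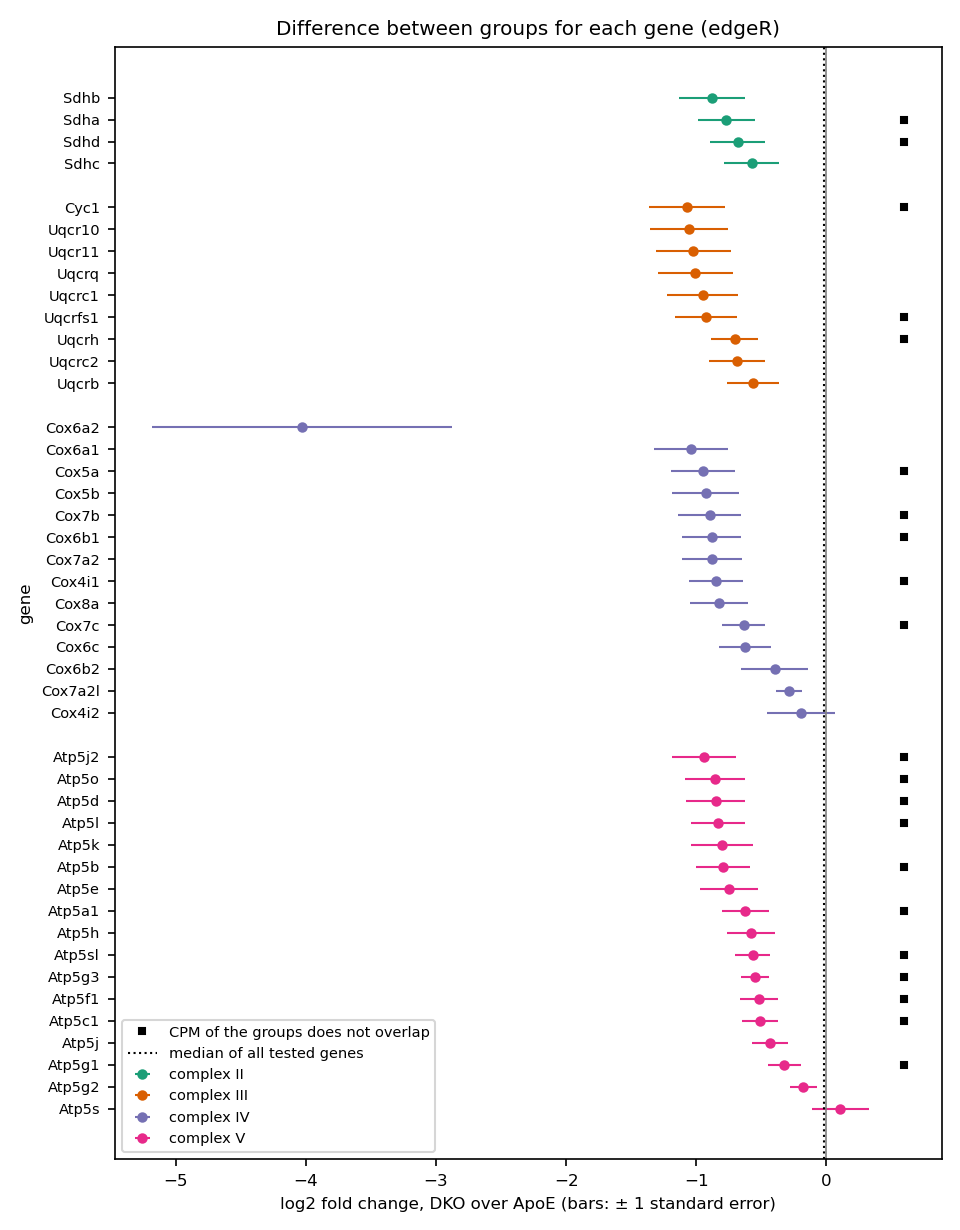
Log2 fold change (DKO over ApoE) of each subunit gene with 1 standard error on either side, from the edgeR fit. Black squares on the right mark genes whose CPM did not overlap between groups, and the dotted line is the median of all tested genes (-0.02). Most genes lie between -1 and -0.5, Cox6a2 lies at -4.03 and Atp5s at 0.11.

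Complex II was lower in DKO for each of its 4 genes, with log2 fold changes between -0.88 and -0.57 and a median of -0.72. Sdha, the flavoprotein subunit that oxidises succinate (chromosome 13, 74322255 to 74350240, GRCm38.p6 here and below), was read at 298, 274, 248 and 331 CPM in the DKO libraries, against 422, 368 and 681 CPM in the ApoE libraries. The groups did not overlap, and the log2 fold change was -0.77 (SE 0.22, adjusted p = 0.161). Sdhb, the iron-sulfur subunit (chromosome 4, 140961271 to 140979198), was read at 115, 114, 106 and 163 CPM in DKO, against 201, 163 and 322 CPM in ApoE. DKO 4 and ApoE 2 met at the same rounded level, and the log2 fold change was -0.88 (SE 0.25, adjusted p = 0.161). Sdhc and Sdhd anchor the enzyme in the inner membrane. Sdhd (chromosome 9, 50596340 to 50603849) was read at 103, 83.8, 81.2 and 99.7 CPM in DKO, against 127, 112 and 204 CPM in ApoE, with no overlap (log2 fold change -0.68, SE 0.21, adjusted p = 0.168). Sdhc (chromosome 1, 171129157 to 171150640) was read at 111, 104, 108 and 152 CPM in DKO, against 171, 132 and 228 CPM in ApoE, where DKO 4 lay above ApoE 2 (log2 fold change -0.57, SE 0.21, adjusted p = 0.205). At unadjusted p under 0.05 all 4 genes were lower, against 11.8% of all genes, and 2 did not overlap between groups, against 9.24%. DESeq2 called 2 of the 4 (Sdha, adjusted p = 0.0267, and Sdhb, adjusted p = 0.0266), against 4.80% of all genes. Over all alternatives the adjusted p ran between 0.0267 and 0.642 for Sdha and between 0.0266 and 0.683 for Sdhb.

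Complex III had the most negative median of the 4 complexes, -0.95 over 9 genes, each of them negative (-1.07 to -0.56). All 9 were lower at unadjusted p under 0.05 (11.8% of all genes), 3 did not overlap between groups (9.24%), and DESeq2 called 7 (4.80%). Uqcrfs1, the Rieske iron-sulfur protein that takes electrons from ubiquinol (chromosome 13, 30540312 to 30545316), was read at 91.4, 81.5, 75.5 and 107 CPM in DKO, against 154, 117 and 235 CPM in ApoE. Its groups did not overlap (log2 fold change -0.93, SE 0.24, adjusted p = 0.157). Cyc1, the cytochrome c1 subunit that hands the electron to cytochrome c (chromosome 15, 76343513 to 76346260), was singled out after its values were seen, as the most negative of the complex. It was read at 107, 95.3, 95.9 and 151 CPM in DKO, against 205, 153 and 348 CPM in ApoE, so that DKO 4 came within a few CPM of ApoE 2 (log2 fold change -1.07, SE 0.29, adjusted p = 0.158). Uqcrh, the hinge protein at the site of cytochrome c1 (chromosome 4, 116066965 to 116075070), averaged 131 ± 16.4 CPM (SD, n = 4) in DKO and 214 ± 54.9 CPM (SD, n = 3) in ApoE, without overlap (log2 fold change -0.71, SE 0.18, adjusted p = 0.157).

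The small subunit Uqcr11 (chromosome 10, 80402997 to 80406821) had the highest mean FPKM (counts scaled for gene length and depth) of complex III, at 224, 196, 189 and 305 FPKM in DKO, against 385, 304 and 538 FPKM in ApoE. In CPM it was read at 82.7, 74.5, 70.7 and 124 in DKO, against 167, 118 and 251 in ApoE, and DKO 4 lay above ApoE 2 on both scales (log2 fold change -1.02, SE 0.29, adjusted p = 0.159). The least negative genes of complex III were Uqcrc2, a core protein (chromosome 7, 120635189 to 120659523), and Uqcrb, the subunit next to the quinone site (chromosome 13, 66900576 to 66905350). Uqcrc2 averaged 119.8 ± 21.9 CPM (SD, n = 4) in DKO and 192 ± 56.6 CPM (SD, n = 3) in ApoE, with DKO 4 at 151 CPM above ApoE 2 at 146 CPM (log2 fold change -0.68, SE 0.22, adjusted p = 0.17). Uqcrb averaged 102 ± 17.4 CPM in DKO and 150.5 ± 38.8 CPM in ApoE, and was above 110 CPM in each ApoE library and in DKO 4 alone of the DKO libraries (log2 fold change -0.56, SE 0.20, adjusted p = 0.192). The remaining genes, Uqcr10, Uqcrq and Uqcrc1, lay between -1.05 and -0.95, each with DKO 4 above ApoE 2.

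Complex IV held 14 members, and each had a negative log2 fold change, with a median of -0.86. At unadjusted p under 0.05, 12 were lower (11.8% of all genes), 5 did not overlap between groups (9.24%), and DESeq2 called 10 (4.80%). The log2 fold changes of the ubiquitous isoforms Cox4i1, Cox6b1, Cox7a2 and Cox8a lay between -0.88 and -0.83, and that of Cox6a1 was -1.04. Cox4i1, the subunit IV isoform of most tissues (chromosome 8, 120668225 to 120674209), was read at 299.6, 297, 296 and 387 CPM in DKO, against 533, 432 and 763 CPM in ApoE. These groups did not overlap, and DKO 4 stood apart from 3 nearly equal DKO libraries (log2 fold change -0.85, SE 0.21, adjusted p = 0.149). Cox6b1, on the intermembrane side of the dimer (chromosome 7, 30616971 to 30626114), averaged 156 ± 27.9 CPM (SD, n = 4) in DKO and 288 ± 88.8 CPM (SD, n = 3) in ApoE, without overlap (log2 fold change -0.88, SE 0.23, adjusted p = 0.157). The 3 members of complex IV with the highest mean FPKM were Cox8a, Cox6c and Cox6a1. Cox8a, the ubiquitous subunit VIII (chromosome 19, 7215158 to 7217616), reached 408, 362, 365 and 524 FPKM in DKO, against 695, 525 and 807 FPKM in ApoE, the highest mean of all 44 members (log2 fold change of the counts -0.83, SE 0.22, adjusted p = 0.158). In CPM its groups overlapped, with DKO 4 at 197 above ApoE 2 at 193. Cox6c (chromosome 15, 35931976 to 35938246) averaged 161 ± 23.4 CPM in DKO and 248 ± 66.8 CPM in ApoE, with DKO 4 at 189 CPM above ApoE 2 at 178 CPM (log2 fold change -0.63, SE 0.20, adjusted p = 0.172). Cox7a2 (chromosome 9, 79755241 to 79771422), the broadly expressed isoform of subunit VIIa, averaged 75.3 ± 14.7 CPM in DKO and 138 ± 44.1 CPM in ApoE, with DKO 4 again just above ApoE 2 (log2 fold change -0.88, SE 0.23, adjusted p = 0.158).

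Minor and tissue isoforms of complex IV gave other values. Cox6a2, the isoform of subunit VIa in heart and skeletal muscle (chromosome 7, 128205435 to 128206366), was read at 1.58, 0.609, 1.07 and 0.204 CPM in DKO, against 0.644, 9.28 and 32.9 CPM in ApoE. Only ApoE 2 and ApoE 3 were high, and ApoE 1 lay inside the DKO range. The log2 fold change was -4.03 (SE 1.15, adjusted p = 0.16) with all libraries and 0.42 (adjusted p = 0.924) without ApoE 2 and ApoE 3, and over all alternatives the adjusted p ran between 0.0036 and 0.924. Its ubiquitous counterpart Cox6a1 (chromosome 5, 115345652 to 115348958) was read at 172, 172, 168 and 269 CPM in DKO, against 381, 256 and 568 CPM in ApoE (log2 fold change -1.04, SE 0.29, adjusted p = 0.158). Here ApoE 1 stood well above the DKO libraries and ApoE 2 under DKO 4. Cox4i2, the subunit IV isoform known from lung (chromosome 2, 152753916 to 152765039), was read at 4.69, 2.58, 4.44 and 3.83 CPM in DKO, against 4.91, 3.86 and 4.58 CPM in ApoE. The groups overlapped almost fully (log2 fold change -0.20, SE 0.26, adjusted p = 0.711), and the sign turned without DKO 2. Cox6b2, known from testis (chromosome 7, 4751792 to 4753094), was read at 3.35, 3.75, 3.64 and 5.67 CPM in DKO, against 6.30, 4.41 and 5.51 CPM in ApoE, with overlap through DKO 4 (log2 fold change -0.40, SE 0.26, adjusted p = 0.417). Cox7a2l, a relative of subunit VIIa that joins complexes III and IV into supercomplexes (chromosome 17, 83501917 to 83514333), averaged 95.6 ± 6.99 CPM in DKO and 116 ± 12.0 CPM in ApoE, a smaller difference than that of Cox7a2 (log2 fold change -0.28, SE 0.10, adjusted p = 0.194).

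Ratios between isoforms of a subunit within a library cancel a shift that both share, and 4 pairs were compared between groups by an exact two-sided permutation test over libraries, whose smallest possible p is 0.0571. Cox6b2 minus Cox6b1 was -5.42, -5.30, -5.14 and -5.09 in DKO, against -5.48, -5.48 and -6.08 in ApoE on the log2 CPM scale. The groups did not overlap, and the difference of 0.44 had an exact permutation p = 0.0571, the smallest that the design allows. Cox4i2 minus Cox4i1 differed by 0.60 (exact permutation p = 0.171), Cox6a2 minus Cox6a1 by -1.94 (exact permutation p = 0.229) and Cox7a1 minus Cox7a2 by -0.69 (exact permutation p = 0.229). Adjusted over the 4 pairs by Benjamini-Hochberg, each exact permutation p was 0.229. The VIa ratio turned to 1.11 without ApoE 2 and ApoE 3.

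**Figure D3:**
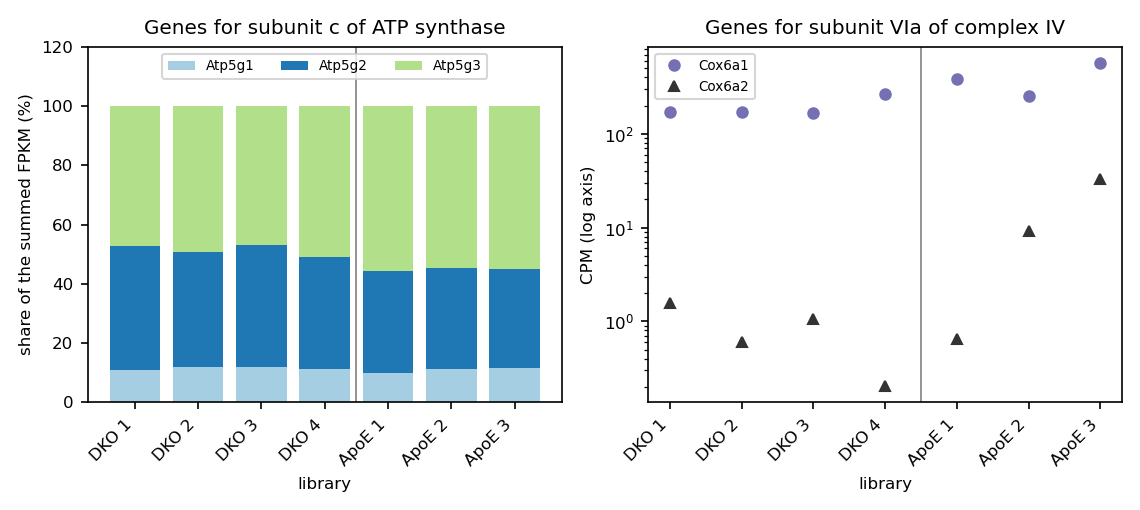
Left, share (%) of each of the 3 subunit c genes in their summed FPKM in each library, DKO left of the line and ApoE right. Right, CPM (log axis) of Cox6a1 and Cox6a2 in the same libraries: Cox6a2 is high in ApoE 2 (9.28 CPM) and ApoE 3 (32.9 CPM) alone, and the Atp5g2 share is 38.0% or more in DKO, against 34.6% or less in ApoE.

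Complex V had 17 members by symbol, and its median of -0.58 was the least negative of the 4 complexes with all libraries, though not without ApoE 3 (-0.45, against -0.42 for complex II). Of these genes 16 were negative (52.6% of all genes) and 15 were lower at unadjusted p under 0.05 (11.8%). The groups did not overlap for 11 (9.24% of all genes), and DESeq2 called 12 (4.80%). Atp5b, the catalytic beta subunit of the F1 head (chromosome 10, 128083307 to 128090388), had the highest CPM of the members, at 752, 714, 645 and 867 CPM in DKO, against 1200.0, 964 and 1716 CPM in ApoE. No DKO library reached an ApoE library (log2 fold change -0.80, SE 0.21, adjusted p = 0.157). Atp5a1, the alpha subunit of the same head, averaged 506 ± 35.9 CPM (SD, n = 4) in DKO and 779 ± 216 CPM (SD, n = 3) in ApoE, also without overlap (log2 fold change -0.62, SE 0.18, adjusted p = 0.161). Of the membrane-bound small subunits, Atp5l (subunit g, chromosome 9, 44913248 to 44920742) averaged 133 ± 24.0 CPM in DKO and 236 ± 64.1 CPM in ApoE, without overlap (log2 fold change -0.83, SE 0.21, adjusted p = 0.155). Atp5k (subunit e, chromosome 5, 108433246 to 108434399) had the highest mean FPKM of complex V, with 373 to 510 FPKM in DKO, against 509 to 820 FPKM in ApoE. DKO 4 and ApoE 2 met there too (log2 fold change of the counts -0.80, SE 0.24, adjusted p = 0.166). The other F1 and F0 genes (Atp5c1, Atp5d, Atp5e, Atp5f1, Atp5h, Atp5j, Atp5j2 and Atp5o) lay between -0.94 and -0.44.

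A pair of rows that carry an Atp5 symbol are named otherwise by RefSeq. Atp5s, which RefSeq calls Dmac2l, was read at 5.36, 6.84, 7.32 and 9.00 CPM in DKO, against 6.74, 7.58 and 5.51 CPM in ApoE, and was the 1 member whose highest library was a DKO library (log2 fold change 0.11, SE 0.22, adjusted p = 0.83). Atp5sl, which RefSeq calls Dmac2 and which is known as an assembly factor of complex I, was read at 24.9, 20.7, 20.4 and 25.5 CPM in DKO, against 32.4, 30.2 and 39.0 CPM in ApoE. Its groups did not overlap, with a narrow spread in DKO (log2 fold change -0.57, SE 0.13, adjusted p = 0.146).

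Subunit c forms the rotating ring of the F0 part, and its 3 genes differ in their promoters, shown above, and in their import sequences but not in the mature protein. Atp5g3 (chromosome 2, 73908447 to 73912464) had the smallest p of all members, with 116, 124, 125 and 139 CPM in DKO, against 186, 163 and 204 CPM in ApoE. The groups were well apart (log2 fold change -0.55, SE 0.11, adjusted p = 0.125). Atp5g1 (chromosome 11, 96072793 to 96075694) was read at 33.0, 38.8, 37.1 and 40.5 CPM in DKO, against 43.6, 41.4 and 55.2 CPM in ApoE, without overlap but with ApoE 2 close to DKO 4 (log2 fold change -0.32, SE 0.13, adjusted p = 0.222). Atp5g2 (chromosome 15, 102662868 to 102671047) was read at 60.0, 58.8, 60.8 and 64.7 CPM in DKO, against 70.9, 59.4 and 76.9 CPM in ApoE, and ApoE 2 lay inside the DKO range (log2 fold change -0.18, SE 0.10, adjusted p = 0.37). On the FPKM scale the 3 genes summed to 301 ± 9.69 FPKM (SD, n = 4) in DKO and 371 ± 28.0 FPKM (SD, n = 3) in ApoE. The share of Atp5g2 in that sum was 42.0, 38.9, 41.2 and 38.0% in DKO, against 34.6, 34.1 and 33.5% in ApoE. Atp5g3 took 48.6 ± 1.82% of it in DKO and 55.2 ± 0.393% in ApoE, and Atp5g1 took 11.4 ± 0.583% in DKO and 10.8 ± 0.879% in ApoE. The shares of Atp5g2 and Atp5g3 did not overlap between groups, and those of Atp5g1 did. These shares were computed after the values of the genes were seen and carry no test.

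Over the 7 libraries 5 members had a mean under 10 FPKM (Cox4i2, Atp5s, Cox6b2, Atp5sl and Cox6a2), and the next lowest was Atp5g1 at 36.7 FPKM. The lowest mean was that of Cox4i2, at 1.77, 1.00, 1.68 and 1.22 FPKM in DKO, against 1.56, 1.33 and 1.51 FPKM in ApoE. By RefSeq coordinates 8 members overlap another gene of the table, among them Cox4i2 (Bcl2l1, 6308 bases), Cox7a2 (Tmem30a, 2482 bases), Atp5d (Cbarp, 1658 bases) and Atp5j (Gabpa, 967 bases). The strand setting of the counting is not known here, and reads of such pairs may not be separated. Processed copies of respiratory genes elsewhere in the genome could likewise have taken reads.

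**Figure D4:**
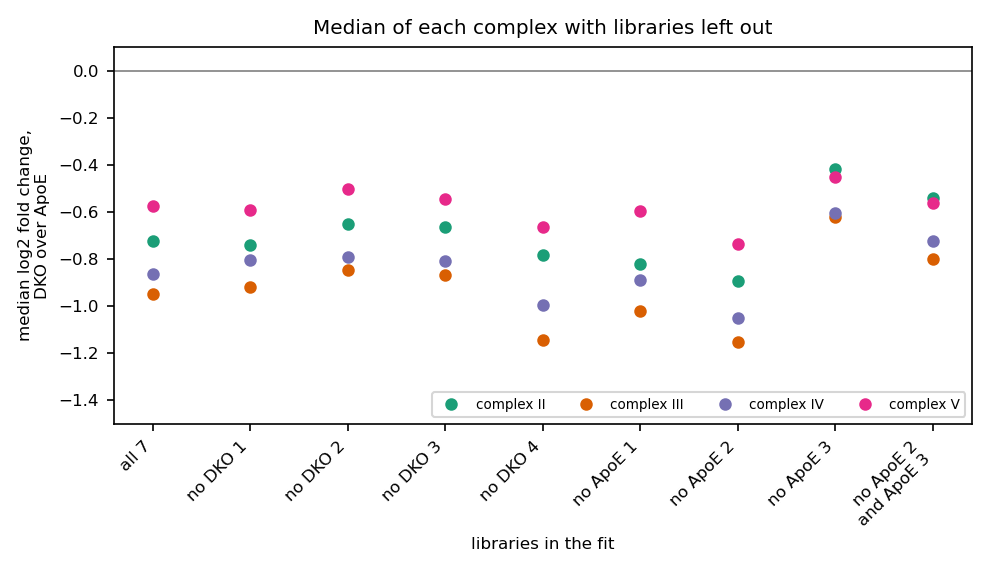
Median log2 fold change (DKO over ApoE) of each complex with all 7 libraries and with the named libraries left out of the edgeR fit. Every median plotted is under 0, and of the settings plotted those without ApoE 3 lie nearest to it (-0.62 to -0.42).

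The differences were smaller without ApoE 3. Relative to the DKO mean, the median member was 2.28 times as high in ApoE 3, 1.61 times in ApoE 1 and 1.28 times in ApoE 2. Between ApoE 3 and ApoE 2 the median ratio was 1.84 for complex II, 2.02 for complex III, 1.83 for complex IV and 1.59 for complex V. Without ApoE 3 the median over the members was -0.51 and 32 of them were lower at unadjusted p under 0.05, against 6.32% of all genes in that fit. The medians by complex were then -0.42 for complex II, -0.62 for complex III, -0.61 for complex IV and -0.45 for complex V, and 44 of 44 members were negative. Without DKO 4 the number that did not overlap between groups was 39, against 20.2% of all genes, and without ApoE 2 it was 40, against 19.1%. With any other library left out it was 21 or 22, against 10.1 to 11.9% of all genes.

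**Figure D5:**
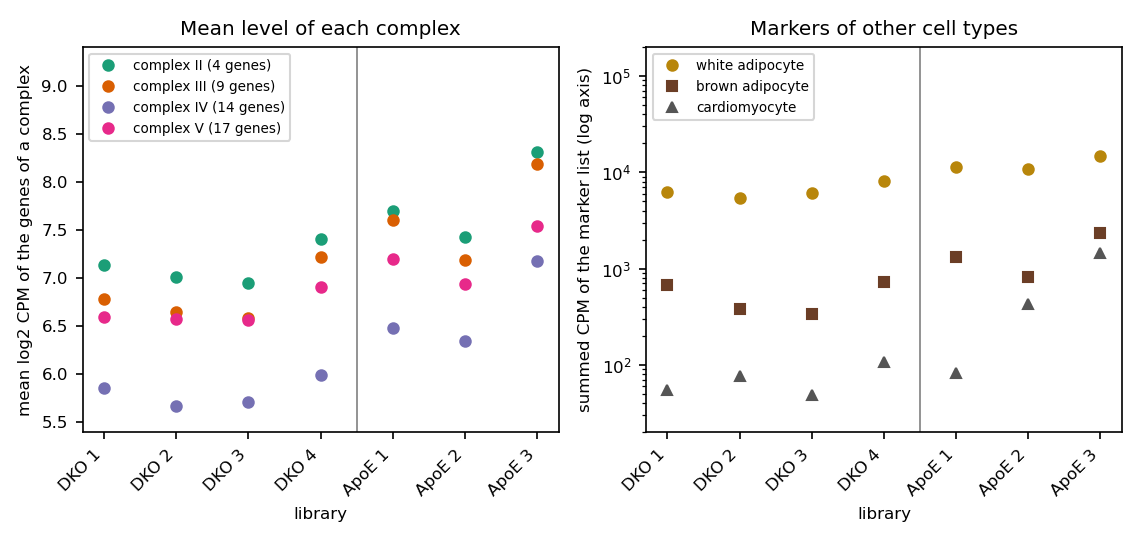
Left, mean log2 CPM of the genes of each complex by library, DKO left of the line and ApoE right. Right, summed CPM (log axis) of the marker lists of white adipocytes, brown adipocytes and cardiomyocytes in the same libraries. ApoE 3 is highest in both panels and DKO 4 is the highest DKO library in both. The complex IV mean (5.99 in DKO 4 and 6.35 in ApoE 2) includes the muscle isoform Cox6a2, at 0.204 CPM in DKO 4, 9.28 CPM in ApoE 2 and 32.9 CPM in ApoE 3.

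The summed levels of the fat marker lists were lower in DKO and differed between libraries in an order like that of the subunits. The 10 brown adipocyte markers, among them Ucp1 and Cidea, summed to 678, 382, 341 and 723 CPM in DKO, against 1327, 826 and 2337 CPM in ApoE, and the groups did not overlap. All 10 were negative (median log2 fold change -1.44). At unadjusted p under 0.05, 7 were lower, against 11.8% of all genes, and 4 did not overlap between groups, against 9.24%. The 12 white adipocyte markers, among them Adipoq and Plin1, summed to 6190, 5340, 6025 and 8129 CPM in DKO, against 11220, 10800 and 14590 CPM in ApoE, again without overlap. All 12 were lower at unadjusted p under 0.05 (median -1.05), against 11.8% of all genes. The groups did not overlap for 10, against 9.24% of all genes, and 0 passed the adjusted test in either list. Each marker of both lists had counts in every library. In both sums DKO 4 was the highest DKO library and ApoE 3 the highest of all, but single markers differed in this. Ucp1 was read at 256, 105, 72.1 and 198 CPM in DKO, against 469, 242 and 796 CPM in ApoE, with DKO 1 the highest DKO library and above ApoE 2. The part of these cell types in the subunit levels was not tested. Of the genes left out of the member list, Cox7a1, the isoform of muscle and brown fat, averaged 25.8 ± 12.0 CPM (SD, n = 4) in DKO and 77.8 ± 47.6 CPM (SD, n = 3) in ApoE (log2 fold change -1.60, adjusted p = 0.167). Cox8b, with the same tissues, averaged 69.4 ± 28.8 CPM in DKO and 190 ± 102 CPM in ApoE (log2 fold change -1.45, adjusted p = 0.161).

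The 12 cardiomyocyte markers summed to 55.0, 77.4, 48.6 and 106 CPM in DKO, against 82.7, 424 and 1440 CPM in ApoE, so ApoE 2 and ApoE 3 stood apart, as for Cox6a2. Nppa, an atrial hormone gene, had 0, 2, 0 and 0 counts in DKO, against 0, 221 and 367 counts in ApoE, and 6 of the 12 (Myh6, Myh7, Myl7, Myl2, Nppa and Sln) were at 0 in at least 1 library. With both ApoE 2 and ApoE 3 left out, the median over the members was -0.69 and 34 were lower at unadjusted p under 0.05, against 5.61% of all genes. The lone ApoE library of that fit is assumed to vary as the DKO libraries do. The 8 smooth muscle markers, which define the labelled tissue, summed to between 8080 and 29200 CPM in DKO and between 15300 and 23900 CPM in ApoE. Their lowest library was DKO 1 and their highest DKO 4, and the groups overlapped. Sums of the macrophage, fibroblast, endothelial, lymphocyte and skeletal muscle markers also overlapped between groups, with 1950 to 4130, 9350 to 18800, 1340 to 1770, 18.8 to 70.9 and 10.8 to 81.5 CPM in DKO, against 1820 to 2780, 12200 to 13600, 1520 to 1790, 4.03 to 51.8 and 19.5 to 123 CPM in ApoE. Within these lists, all 8 macrophage markers (median log2 fold change 0.38) and all 6 lymphocyte markers (median 0.86) were positive. Of all 14609 genes, 6924 were positive. At unadjusted p under 0.05, 0 of the macrophage and 1 of the lymphocyte markers were higher, against 8.00% of all genes. The 6 fibroblast markers were split, with a median of -0.10, and 3 were positive (Col1a1 at 0.32, Pdgfra at 0.24 and Lum at 0.23). The other 3 were lower at unadjusted p under 0.05 without overlap (Pi16 at -1.45, Dpt at -0.52 and Dcn at -0.43). Of all genes 11.8% were lower at that p, and 9.24% were lower without overlap. In these lists 0 markers passed the adjusted test. The parts of these cell types in the subunit levels were not tested.

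Other gene lists of the pathway had medians nearer to 0. Of 37 tested assembly factors of complexes II to V, 34 were negative, against 52.6% of all genes, with a median of -0.39. At unadjusted p under 0.05, 15 were lower (11.8% of all genes) and 0 were higher (8.00%), and 0 passed the adjusted test. They ran between Cox17, a copper chaperone of complex IV (47.8 ± 10.9 CPM in DKO and 79.6 ± 26.9 CPM in ApoE, log2 fold change -0.74, adjusted p = 0.19), and Coa4 (log2 fold change 0.12, adjusted p = 0.762). Of 20 tested electron and mitochondrial carriers 18 were negative and 11 lower at unadjusted p under 0.05 (median -0.36), against 11.8% of all genes. Ckmt2, the creatine kinase of muscle mitochondria, was lowest at 1.48, 0.422, 0.399 and 0 CPM in DKO, against 0.0991, 7.17 and 30.0 CPM in ApoE, high in the same libraries as Cox6a2. Atpif1, the inhibitor of ATP synthase, was highest (57.2 to 74.6 CPM in DKO and 55.7 to 68.3 CPM in ApoE, log2 fold change 0.05, adjusted p = 0.678). Cycs, the cytochrome c that links complexes III and IV, averaged 80.7 ± 16.2 CPM in DKO and 137 ± 44.7 CPM in ApoE (log2 fold change -0.76, adjusted p = 0.17). Of 15 tested regulators 9 were negative and 6 positive (median -0.14). At unadjusted p under 0.05, 5 were lower (11.8% of all genes) and 1 was higher (8.00%). Without overlap, 5 were lower (9.24% of all genes) and 1 higher (1035 of all 14609 genes), and 0 passed the adjusted test. Ppargc1a, which encodes PGC-1α, was read at 4.79, 3.23, 4.48 and 4.70 CPM in DKO, against 8.18, 13.6 and 13.6 CPM in ApoE, without overlap (log2 fold change -1.45, SE 0.24, adjusted p = 0.114). Gabpb1, a partner of GABPA, averaged 20.4 ± 2.27 CPM in DKO and 14.6 ± 0.727 CPM in ApoE, the 1 regulator that was higher without overlap (log2 fold change 0.49, SE 0.12, adjusted p = 0.149). The other regulators without overlap were Perm1 (log2 fold change -1.41, adjusted p = 0.158), Ppargc1b (-0.89, adjusted p = 0.161), Ppara (-0.87, adjusted p = 0.156) and Esrra (-0.65, adjusted p = 0.188), all lower in DKO. Nrf1 differed by -0.04 (adjusted p = 0.836) and Gabpa by 0.20 (adjusted p = 0.35). Ppargc1a is also in the brown adipocyte list, as are Cox7a1 and Cox8b.

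Most members followed one another closely over the 7 libraries, which are similar in depth and differ in the marker sums given above. Pearson's r between a member and the mean of the members was highest for Cyc1 (0.998) and lowest for Atp5s (-0.28), Cox4i2 (0.44) and Cox6a2 (0.65), as a description over 7 libraries in which each member is part of the mean. A search for genes like the members covered 8917 other genes with a mean log2 CPM of at least 4. Of complex I, only genes with names starting Nduf were left out of it. The 8 with the highest r were Idh3b (0.996), Foxred1, Pccb, Idh2, Mtch2, Etfdh, Pxmp4 and Aifm1 (0.995). Idh3b, a subunit of the tricarboxylic acid cycle enzyme isocitrate dehydrogenase, was read at 138, 131, 119 and 184 CPM in DKO, against 252, 187 and 393 CPM in ApoE (log2 fold change -0.96, SE 0.26, adjusted p = 0.158). DKO 4 lay just under ApoE 2 there as well.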

How the data were processed

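Per the labels' protocols, libraries of polyadenylated RNA were made with the TruSeq Stranded mRNA kit, which marks strand. Trimmomatic, HISAT2, HTSeq, Cufflinks, DESeq and GRCm38.p6 are named in the submitters' processing notes, while versions, roles, annotation, alignment filters and the strand setting of counting are not given there. The deposited gene counts are whole numbers that the authors did not normalise, and the deposited FPKM values were scaled for length and depth by the authors, per the file headers. Columns were matched to samples by genotype and number.

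The count table had 21878 rows, 4054 of them without a count, and 27 symbols turned into dates were restored through their identifiers. filterByExpr (minimum count 10) left 14609 genes. TMM-scaled counts were tested with edgeR 4.0.16 (quasi-likelihood test, R 4.3.3) on 4 DKO and 3 ApoE libraries. Benjamini-Hochberg adjustment was over all genes, with a threshold of 0.05. The script was checked on simulated counts in which 200 genes were changed. At that threshold it recovered 0.0% of them at a 1.5-fold change, 45.0% at 2-fold and 90.5% at 4-fold. A gene that changed 1.5-fold could thus go uncalled. CPM were taken on library sizes scaled by TMM, and log2 CPM for means and ratios had a prior count of 2. No pair of libraries repeated one another (lowest chi-square per gene 35.1). DESeq2 1.42.0 and limma 3.58.1 on log2 FPKM served as alternatives, and exact permutation tests over libraries were enumerated in Python. Alternatives tried numbered 17.

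Members, gene lists, motifs and tests were chosen with earlier results of these data known. Named members were all of complex II, in each other complex the 3 with the highest mean FPKM, the 2 with the smallest p and the 2 with the highest log2 fold change, the tissue isoforms of complex IV and the subunit c genes; from each pathway list the genes with the lowest and highest log2 fold change; and the 8 genes most alike by Pearson's r. Cyc1, Atp5a1, Cycs, Nrf1, Gabpa and the other regulators without overlap were chosen after their values were seen. So were Ucp1 as a marker with values by library, the fibroblast markers given singly and the genes named only in ranges. Promoters and coordinates are from RefSeq (GRCm38.p6), where all 44 members have an identifier.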

Additional observations from a re-analysis of the deposited data

Results flagged for a closer look

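Within the DKO group, the highest or lowest library was set against the other 3 for 35 values, and 7 were flagged because DKO 4 stood far above 3 libraries that lay close together. Chance flags about 1 in 20 such groups, and these values are not independent because the members follow one another. Cox4i1 was at 387 CPM in DKO 4 and at 296 to 300 CPM in the other DKO libraries, and Cox6a1 at 269 CPM against 168 to 172 CPM. Sdhb was at 163 CPM in DKO 4 against 106 to 115 CPM in the others, and Sdhc at 152 CPM against 104 to 111 CPM. Atp5l was at 168 CPM against 118 to 125 CPM, and Cox7a2 at 97.3 CPM against 66.6 to 70.2 CPM. The mean log2 CPM of complex V was 6.91 in DKO 4 and 6.57 to 6.59 in the other DKO libraries. The cause was not tested. The ApoE group, with 3 libraries, was not examined in this way.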

How the results depend on the processing

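The median over the members kept its sign under all 17 alternatives (-0.96 to -0.50), and so did the median of each complex. DESeq2 moved the count of members called lower to 31, and of all genes to 673 lower and 453 higher, against 0 members, 4 genes and 0 genes with edgeR; the members' adjusted p depended on the tool. Over all genes, leaving out 1 library gave 0 to 2 genes lower and 0 to 4 higher. Leaving out ApoE 2 and ApoE 3, or ApoE 3 and DKO 1, gave 0 lower, and the second gave 2 higher. On log2 FPKM, 0 genes were lower without a filter, and 1 was higher with either pseudocount (1 or 0.1) and a minimum mean. Of the members, 22 were lower at unadjusted p under 0.05 without ApoE 3 and DKO 1 (4.93% of all genes), against 40 with all (11.8%). Those without overlap numbered 21 to 40 with 1 library left out and 42 without ApoE 2 and ApoE 3, where 26.0% of all genes did not overlap, against 21 with all (9.24%). Without ApoE 2 and ApoE 3, the signs turned for Cox6a2 (log2 fold change 0.42), for Cox6a2 minus Cox6a1 (difference in log2 CPM 1.11) and for the cardiomyocyte list (median 0.16). With 1 library left out, Cox4i2 ran between -0.29 (without ApoE 2) and 0.0008 (without DKO 2), and Atp5s between -0.023 (without DKO 4) and 0.24 (without DKO 1), with -0.0072 without ApoE 3. Among the named members, call and direction held in 437 settings of single genes, 16 passed the threshold with DESeq2 only and 5 turned sign. Cox6a2 has no value at a minimum count of 50, which it did not pass.

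The labels number the libraries in both groups. Deviations from the group mean correlated between same-numbered libraries at r = -0.39, 0.70 and 0.00 for numbers 1, 2 and 3. Differently numbered libraries ran between -0.73 and 0.58. So few libraries cannot show whether the numbers pair them, and the main fit assumed no pairing. With the replicate number as a block, on the 6 libraries numbered 1 to 3, 0 genes were lower, 39 members were lower at unadjusted p under 0.05 (15.2% of all genes), the members' median was -0.84 and Atp5s turned to -0.024. The lowest total of any member was 595 counts over the 7 libraries (Cox4i2), so depth limited the values of Cox4i2, Cox6a2, Cox6b2 and Atp5s more than those of the others.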
